A study of Homo sapiens with 6 samples.

Results

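Messenger RNA of 8 genes for immune costimulatory and checkpoint ligands was followed in H69 cells treated with trichostatin A (TSA), an inhibitor of histone deacetylases, enzymes that strip acetyl marks from histones. The genes were chosen by name from a list of 9 ligands, and 8 of the 9 were matched by symbol among the 31814 genes of the deposited table. They are TNFSF9 (ENSG00000125657.3), TNFSF4 (ENSG00000117586.6), CD70 (ENSG00000125726.6), CD274 (ENSG00000120217.9), CD276 (ENSG00000103855.13), CD47 (ENSG00000196776.10), PVR (ENSG00000073008.10) and PVRL2 (ENSG00000130202.5). PDCD1LG2, the ninth, was not analysed here.

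Cells of the human line H69, grown in RPMI medium with serum, received the solvent DMSO (vehicle, 3 libraries) or TSA at 1 µM (3 libraries), and RNA was taken after 24 h. The design text names TSA, the tag on the treated samples reads HSA, and TSA is used as their name here. The labels do not name the tissue of the line, and they do not say whether each library had a culture of its own, so that p-values reflect a spread between libraries that may be technical. Both groups share the line and the medium.

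Ligands of this kind sit on the surface of a cell and bind receptors of lymphocytes or macrophages. TNFSF9, TNFSF4 and CD70 belong to the tumour necrosis factor superfamily and costimulate T cells through the receptors TNFRSF9, TNFRSF4 and CD27. CD274 encodes PD-L1, which restrains T cells through the receptor PD-1, and CD276 is a relative of it in the B7 family whose receptor is not settled. CD47 holds back phagocytosis through SIRPA. PVR and PVRL2 are nectin-family adhesion proteins that bind the activating receptor CD226 and the inhibitory receptor TIGIT on T cells and natural killer cells.

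Levels are given as TPM, a share of each library's transcripts scaled by gene length, so that levels of different genes can be compared. Each library held at least 22533307 to 26148651 reads, by whole reads recovered from the TPM values. In vehicle the line held markers of neuroendocrine cells, with INSM1 at 614 ± 77.4 TPM (mean ± SD, n = 3, as for all values below). The summed TPM of 6 such markers ran from 1488 to 1769 in vehicle and from 643 to 756 in TSA. Of 6 bile duct markers 2 stayed under 1 TPM in all libraries, CFTR among them, KRT19 (208 ± 48.2 to 100.7 ± 29.4 TPM) and KRT7 fell, and SLC4A2 (20.6 ± 2.5 to 59.6 ± 5.84 TPM) and SOX9 rose. The summed level of the 6, mostly KRT19, ran from 202 to 303 TPM in vehicle and from 149 to 210 TPM in TSA. Of 10 immune cell markers 7 stayed under 1 TPM in all libraries, the pan-leukocyte gene PTPRC among them, CSF1R rose from near 0 to 1.22 TPM, and the sum of the 10 ran from 4.13 to 4.99 TPM in vehicle and from 7.10 to 7.93 TPM in TSA. Of 6 stromal and endothelial markers 5 stayed under 1 TPM in all libraries, and the sum ran from 0.794 to 1.30 TPM in vehicle and from 5.01 to 6.70 TPM in TSA, where most of it was COL1A1. The part of these markers in the results below was not tested. Mitochondrial transcripts took from 4.97% to 12.3% of the TPM total in vehicle and from 7.65% to 16.9% in TSA, and their part in the results was not tested beyond a rescaling without them.

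TNFSF9, CD274, PVRL2 and CD276 were the genes with the greatest differences between the groups. The 250 bases before their annotated starts are shown, as a stretch where transcription factors can bind. They were taken from RefSeq (GRCh38.p14), which is not the hg19 build of the deposited values, and run 5′ to 3′ on the strand of the gene. Capitals mark matches of any of 6 motifs on either strand: the GC box GGGCGG, the box CCAAT, the TATA box TATAAA, the E-box CACGTG, the AP-1 site TGANTCA, and a pair of GAAA repeats with 2 bases between them, which reads as TTTC repeats on the other strand. The windows are chr19:6530776-6531025 (plus strand) for TNFSF9, chr9:5450292-5450541 (plus strand) for CD274, chr19:44846047-44846296 (plus strand) for PVRL2 (RefSeq name NECTIN2) and chr15:73684133-73684382 (plus strand) for the first of 2 starts of CD276.
TNFSF9: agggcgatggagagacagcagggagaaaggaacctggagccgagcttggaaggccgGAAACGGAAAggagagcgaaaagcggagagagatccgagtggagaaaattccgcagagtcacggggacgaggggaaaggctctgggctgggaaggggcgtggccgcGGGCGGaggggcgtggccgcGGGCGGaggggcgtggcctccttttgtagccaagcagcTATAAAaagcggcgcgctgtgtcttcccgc
CD274: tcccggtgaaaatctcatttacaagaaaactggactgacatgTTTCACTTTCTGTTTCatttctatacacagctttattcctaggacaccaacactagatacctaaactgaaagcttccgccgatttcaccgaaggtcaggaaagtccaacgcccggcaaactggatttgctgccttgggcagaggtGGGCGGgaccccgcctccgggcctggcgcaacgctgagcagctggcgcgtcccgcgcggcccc
PVRL2: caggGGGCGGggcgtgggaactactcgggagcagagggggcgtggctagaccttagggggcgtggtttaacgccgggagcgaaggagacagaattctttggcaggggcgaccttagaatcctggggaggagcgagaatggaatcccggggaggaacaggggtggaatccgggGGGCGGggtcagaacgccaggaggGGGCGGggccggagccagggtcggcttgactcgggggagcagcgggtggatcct
CD276: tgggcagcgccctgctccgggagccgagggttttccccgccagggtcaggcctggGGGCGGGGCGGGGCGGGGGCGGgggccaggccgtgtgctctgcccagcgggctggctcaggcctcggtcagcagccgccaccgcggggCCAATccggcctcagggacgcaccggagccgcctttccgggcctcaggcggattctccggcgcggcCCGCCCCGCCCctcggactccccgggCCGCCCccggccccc

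TNFSF9, the ligand of the costimulatory receptor CD137, showed the widest change among the tested ligand genes. It was at 0 in each of the 3 vehicle libraries, and TSA libraries 1, 2 and 3 held 10.7, 20.6 and 16.5 TPM. All TSA libraries were therefore above all vehicle libraries, and library 1 was the lowest of the treated ones. These levels rested on 129, 254 and 194 recovered reads. A floor of 3 reads per vehicle library corresponds to 0.256 to 0.288 TPM. On that floor TNFSF9 was at least 55.3-fold higher in TSA, with counting error alone considered. On the log2(TPM + 1) scale the difference was 4.04 with a standard error of 0.24 (limma, adjusted p = 2.5e-05), a value that depends on the added 1 because vehicle is at 0. Without TSA library 1 it was 4.28. TNFSF9 entered the test only through its level in TSA and had to differ, so the adjusted p-value adds no support. Of the 17596 tested genes 0.591% had a larger absolute difference.

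The other costimulatory ligands of the family stayed low. TNFSF4, which encodes OX40 ligand, was at 0.342, 0.283 and 0.322 TPM in vehicle and at 0.349, 0.170 and 0.394 TPM in TSA, and the groups overlapped. It rested on 25 recovered reads in vehicle and 26 in TSA, a ratio of 0.956 with an exact 95% interval of 0.531 to 1.73 for counting error alone, so a change within that interval was not detectable at this depth. CD70 was at 0 in each vehicle library, and at 0.180, 0.350 and 0 TPM in TSA, from 1, 2 and 0 recovered reads, and these few reads give no fold change. Neither gene passed the filter of 1 TPM in at least 3 libraries.

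**Figure D1:**
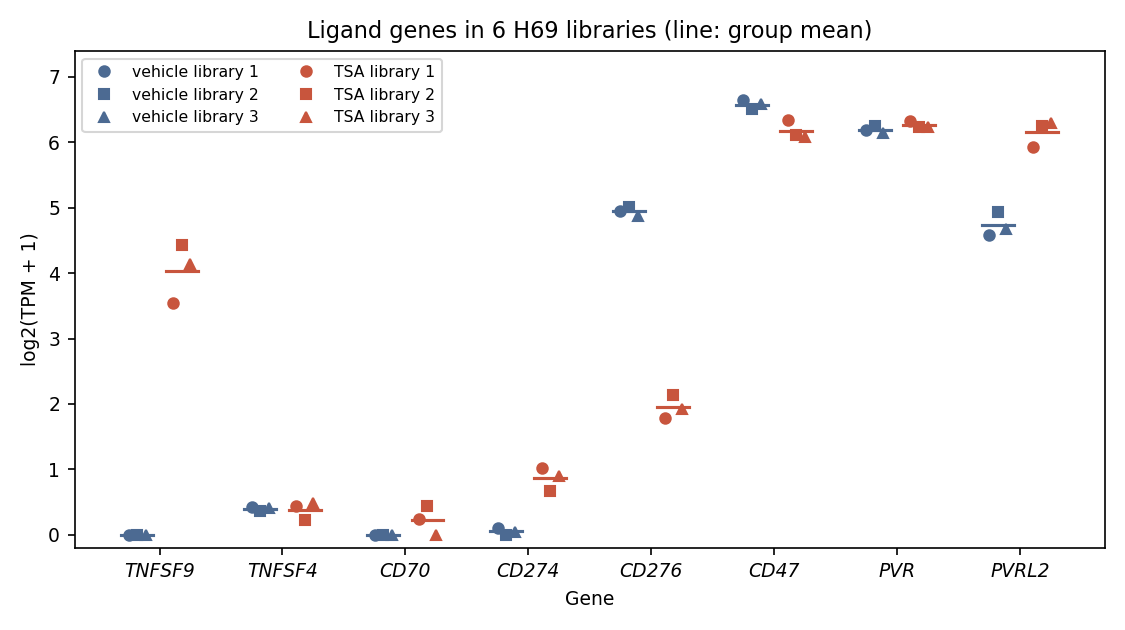
Level of each of the 8 ligand genes on the log2(TPM + 1) scale in the 3 vehicle libraries (blue) and the 3 TSA libraries (red), with a marker shape per library number and a line at the mean of each group. TNFSF9 and PVRL2 are higher and CD276 is lower in every TSA library, PVR overlaps between the groups, and TNFSF4 and CD70 lie near 0.

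CD274 (PD-L1) was near the limit of detection in vehicle and low in TSA. It was at 0.0729, 0 and 0.0344 TPM in vehicle, from 2, 0 and 1 recovered reads, and at 1.04, 0.588 and 0.859 TPM in TSA, from 31, 18 and 25 reads. The 3 treated libraries were above the 3 vehicle libraries without overlap. Summed over a group and corrected for depth, the ratio was 22.7 with an exact 95% interval of 7.46 to 112, which covers counting error only. The gene did not pass the filter on low values, so it was not among the tested genes. A 2-sided exact permutation test of the 3 against 3 levels gave p = 0.1, the smallest value this design allows. A fit without the filter gave a log2 difference of 0.81 with a standard error of 0.11 (limma, adjusted p = 0.0023), and the authors' deposited table lists a log2 fold change of 4.41 with an FDR of 4.9e-10. Even in TSA only 44.4% of all genes in the table had a lower mean level than CD274.

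CD276 (B7-H3) fell to a small share of its vehicle level. It was at 29.9, 31.2 and 28.3 TPM in vehicle and at 2.43, 3.41 and 2.80 TPM in TSA. The highest treated library was far below the lowest vehicle library, and recovered reads went from 1107, 1087 and 1110 to 98, 141 and 110. Mean levels of 29.8 ± 1.47 and 2.88 ± 0.494 TPM differ by 10.3-fold, and the log2 difference on the log2(TPM + 1) scale was −2.99 with a standard error of 0.14 (limma, adjusted p = 1.2e-05). Of the tested genes 1.26% had a lower log2 difference. In bulk RNA, fewer cells that express a gene and less RNA per cell cannot be told apart, which holds for CD276 and for each result below.

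CD47 fell slightly and stayed among the abundant ligands. It was at 98.7, 89.9 and 94.9 TPM in vehicle and at 80.2, 68.3 and 66.8 TPM in TSA, so that the lowest vehicle library lay above the highest treated library. The log2 difference was −0.40 with a standard error of 0.10 (limma, adjusted p = 0.012), and −0.30 relative to the median of all tested genes. The call ended under a quantile scaling (adjusted p = 0.054), without mitochondrial genes (0.052), with recovered reads (0.056) and without TSA library 3 (0.053). With length and GC trends removed from each library the difference was 0.07 (adjusted p = 0.52, the highest of 19 alternatives, whose lowest was 0.0033), and the authors' deposited table gives an FDR of 0.141.

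PVR and PVRL2, both ligands of CD226 and TIGIT, are described next. PVR was at 71.6, 75.0 and 69.8 TPM in vehicle and at 79.5, 74.0 and 73.9 TPM in TSA, with overlap between the groups. Its log2 difference of 0.07 had a 95% interval of −0.12 to 0.26 (limma, adjusted p = 0.48). In GENCODE 29 PVR overlaps CEACAM19 on the same strand, a gene at 3.83 to 4.74 TPM in these libraries. Reads in shared sequence could have been left out or given to either gene, which the labels do not settle.

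PVRL2, also named nectin-2 or CD112, rose. It was at 23.1, 29.6 and 24.5 TPM in vehicle and at 59.7, 75.0 and 77.9 TPM in TSA, with no overlap. The means of 25.7 ± 3.42 and 70.9 ± 9.77 TPM differ by 2.76-fold, and the log2 difference was 1.43 with a standard error of 0.14 and a 95% interval of 1.08 to 1.77 (limma, adjusted p = 0.00020). That interval does not touch the interval of PVR. Overlap of PVRL2 with an antisense gene, at 0 to 0.374 TPM, is small beside these levels. Within libraries the ratio of PVRL2 to PVR was 0.322, 0.394 and 0.351 in vehicle and 0.752, 1.01 and 1.05 in TSA, so the groups did not overlap. A 2-sided exact permutation test of the log2 ratio, which differed by 1.39, gave p = 0.1, the smallest value that 3 against 3 libraries allow.

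**Figure D2:**
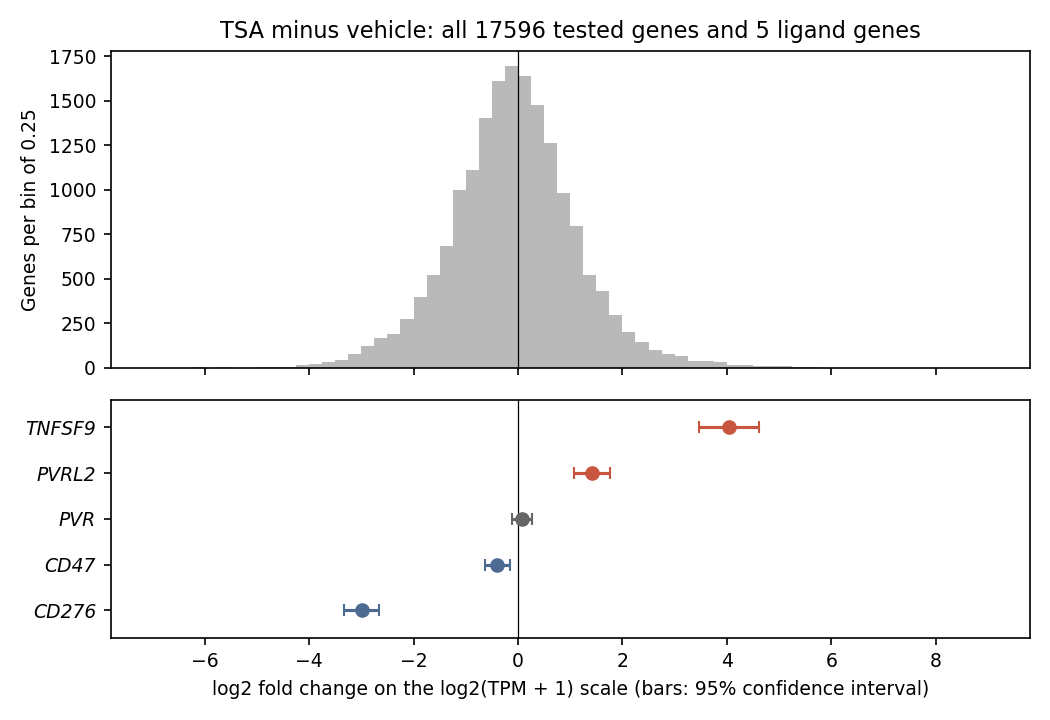
The upper panel counts all 17596 tested genes by log2 fold change on the log2(TPM + 1) scale, positive when higher in TSA, in bins of 0.25. The lower panel gives the 5 tested ligand genes with 95% confidence intervals from limma, in red where higher, blue where lower and grey where the test was not passed. TNFSF9 at 4.04 and CD276 at −2.99 lie in the tails of the distribution, PVRL2 at 1.43 on its upper slope, and CD47 and PVR near its centre.

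Of the 8 genes 5 were tested, of which 2 were higher (TNFSF9 and PVRL2), 2 lower (CD276 and CD47) and 1 did not pass. Over all tested genes limma called 62.2%, with 28.0% higher and 34.2% lower, so the share of called ligand genes is near the background and is not a result about them. TNFSF9 entered the test only through its level in TSA and had to differ. The groups did not overlap for 5 of the 8 genes (TNFSF9, CD274, CD276, CD47 and PVRL2), against 47.4% of all genes in the table. Among the 5 tested ligand genes 4 did not overlap, against 67.0% of all tested genes.

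The median log2 difference of the 5 tested ligand genes was 0.07, beside −0.10 for all tested genes. Scaling by median ratios instead shifts the median of all genes by 0.10, and differences of about that size depend on the scaling. In the authors' deposited table, whose fold changes are on a log2 scale without the added 1, the FDR was under 0.05 for CD276 (log2 fold change −3.29), TNFSF9 (10.6), PVRL2 (1.54), CD274 (4.41) and CD70 (4.06, on 3 recovered reads in all), against 41.3% of its genes. TNFSF9 and CD70 had no reads in vehicle. The sizes of their fold changes there depend on how a level of 0 was handled, which the headers do not state.

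The order of the ligand levels changed in TSA. In vehicle CD47 was the highest, followed by PVR, then by CD276 and PVRL2, whose values overlapped, and the 4 other genes were all under 1 TPM. In TSA the values of PVR overlapped those of CD47, and those of CD47 overlapped those of PVRL2. TNFSF9 came next, above CD276, followed by CD274, while TNFSF4 and CD70 overlapped at the bottom. The summed TPM of the 8 genes moved little, from 218 to 226 TPM in the vehicle libraries to 234 to 242 TPM in the TSA libraries. CD276 made up 13.0% to 13.8% of that sum in vehicle and 1.04% to 1.41% in TSA. PVRL2 made up 10.3% to 13.1% and then 25.5% to 32.6%, and TNFSF9 none and then 4.58% to 8.48%.

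**Figure D3:**
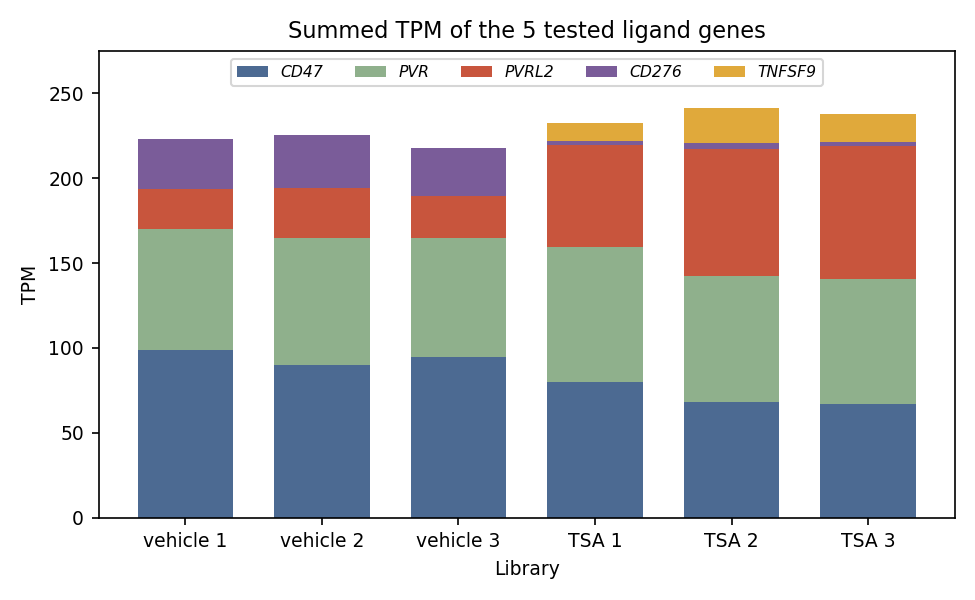
Stacked TPM of the 5 tested ligand genes in each of the 6 libraries. The total lies between 218 and 241 TPM, while the segment of CD276 shrinks and those of PVRL2 and TNFSF9 grow in the TSA libraries.

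RefSeq windows of 250 bases before the start were matched for 7 of the 8 genes, with 2 windows for CD276 and none for CD70. The windows of the ligand genes mostly held many CpG dinucleotides. CD47 had 39, CD276 had 29 and 23 in its windows, PVR 27, TNFSF9 23, PVRL2 19, CD274 16 and TNFSF4 5, beside a median of 11 over all 35116 windows of the table. The GC box was matched 7 and 2 times in the windows of CD276, some matches sharing a base, 6 times for CD47, 3 times for PVRL2, 2 times for TNFSF9 and once for CD274. It was matched in 42.6% of all windows, and neither PVR nor TNFSF4 had a match of it.

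In the windows printed above TNFSF9 holds TATAAA ending 24 bases before the start, a match found in 10.7% of all windows and in none of the other ligand genes. The pair of GAAA repeats, which resembles the sequence bound by interferon regulatory factors, was matched in 3.02% of all windows. CD274 holds 2 overlapping matches of it on the other strand, ending 198 and 192 bases before the start, and TNFSF9 holds 1 match, ending 184 bases before. CCAAT was matched in the first window of CD276 alone and in 32.0% of all windows. The E-box and the AP-1 site were matched in no window of these genes, and in 6.34% and 6.57% of all windows. These matches describe the letters of the windows and no binding was measured.

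TNFSF9 and CD70 are close neighbours on chromosome 19. All 6 of the nearest tested genes around TNFSF9, in the gene order of GENCODE 29, were higher in TSA. Over all tested genes the share was 28.0%. TUBB4A, a beta tubulin, had mean levels of 0.0712 TPM (vehicle) and 13.0 TPM (TSA), a log2 difference of 3.70. GPR108 was at 0.0457 and 9.88 TPM, with a log2 difference of 3.38. TRIP10 and DENND1C had differences of 2.12 and 1.66, CRB3, an apical polarity gene, of 1.09, and ZNF557 of 1.08. DENND1C, TUBB4A, GPR108 and TRIP10 were near 0 in vehicle and so were tested only through TSA and had to be higher. Of the 6, only CRB3 and ZNF557 could have gone either way. The nearest tested genes around CD70 are TNFSF9 and the 6 without CRB3, so both ligand genes share most of their neighbours.

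The neighbours of the other ligand genes were mixed. Around CD276 on chromosome 15, 3 of 6 were higher and 2 lower, with NPTN at a log2 difference of 1.15, STOML1 at 1.23, the pacemaker channel gene HCN4 at −1.82 and LOXL1-AS1 at −1.17. Around CD274 on chromosome 9 the nearest tested genes, PLGRKT and KIAA1432, did not pass the test, at 0.12 and −0.17, and RLN2, which encodes relaxin-2, was higher by 1.83. Around PVRL2 the nearest, TOMM40, did not pass at −0.12, BCAM was higher by 1.03 and APOE by 1.83, and APOC1 had a difference of −1.37. Around PVR, where CEACAM22P had a difference of 3.25 and AC138472.6 of 1.84, both listed at 0 in vehicle, 3 of 6 were higher and none lower. Near CD47 the differences were 1.31 for BBX, 1.37 for LINC00883 and −2.04 for KIAA1524, and near TNFSF4 they were 1.20 for DNM3, 1.76 for ANKRD45, −0.56 for PIGC and −0.92 for RP11-296O14.3, all past the test. Of 39 distinct neighbours in all, 18 were higher, 7 lower and 14 did not pass. Of the 18, 10 had a mean under 1 TPM in vehicle and entered the test only through TSA. Among the 29 neighbours whose vehicle mean reached 1 TPM there were 8 higher and 7 lower, beside 28.0% and 34.2% of all tested genes.

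**Figure D4:**
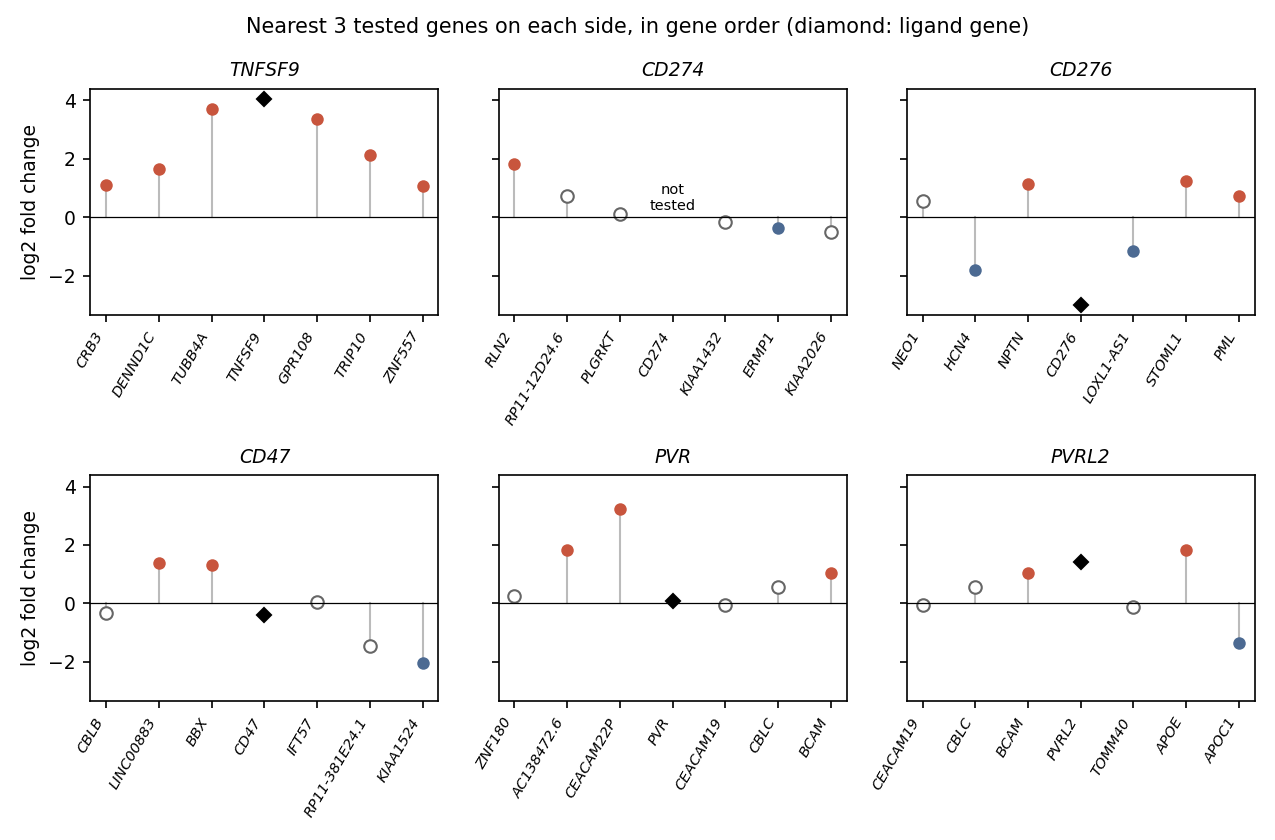
The log2 fold change of the 3 nearest tested genes on each side of 6 ligand genes, in gene order along the chromosome, with the ligand gene as a black diamond. Red points were higher, blue points lower and open points did not pass the test. All 6 points around TNFSF9 are above 0, where DENND1C, TUBB4A, GPR108 and TRIP10 had to be higher. The other panels hold points on both sides of 0.

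Genes around the ligands were read from lists written for this purpose. Of the 12 other ligands of the tumour necrosis factor superfamily that were found, 9 stayed under 1 TPM in all libraries and 3 were tested. EDA, the ectodysplasin gene, tested only through TSA, rose from 0.0766 ± 0.0824 to 8.75 ± 0.681 TPM. TNFSF13 (APRIL) fell from 2.87 ± 0.602 to 0.402 ± 0.105 TPM and TNFSF12 (TWEAK) from 1.83 ± 0.350 to 0.336 ± 0.0588 TPM. TNF itself, at 0.290 ± 0.206 and 0.685 ± 0.0639 TPM, did not pass the filter.

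Of 14 other B7 and butyrophilin genes 8 were tested, with 6 higher and 2 lower. The 5 of them with a mean under 1 TPM in vehicle were tested only through their level in TSA, so that they had to be higher. Of the 3 whose vehicle mean reached 1 TPM, ICOSLG, the ligand of the costimulatory receptor ICOS, was higher and BTN2A1 and NCR3LG1 were lower. Over all tested genes 28.0% were higher and 34.2% lower. Those shares include genes under 1 TPM in vehicle and are not a like background for the 3. BTNL9, a butyrophilin-like gene, rose from 0.247 ± 0.115 to 5.46 ± 2.22 TPM and C10orf54, which encodes the checkpoint ligand VISTA, from 0.0798 ± 0.0488 to 3.62 ± 0.696 TPM. NCR3LG1 (B7-H6), which natural killer cells recognise through NKp30, fell from 21.5 ± 6.35 to 4.01 ± 2.95 TPM. CD80 and CD86, the classical costimulatory B7 genes, stayed under 1 TPM in all libraries, as did VTCN1 and HHLA2.

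All 7 other nectin and nectin-like genes were tested, of which 6 were higher and 1 lower. PVRL4 and CADM3 were near 0 in vehicle and entered the test only through TSA. Among the 5 genes whose vehicle mean reached 1 TPM there were 4 higher and 1 lower, beside 28.0% and 34.2% of all tested genes. The lower call, on PVRL1 (adjusted p = 0.016), ended in 7 of 19 alternatives, among them both other scalings and the fits without vehicle library 3, TSA library 2 or TSA library 3. The higher call on CADM4 (limma, adjusted p = 0.028) ended in 6, among them the fits without vehicle library 1 or 3 or TSA library 2 or 3. PVRL4 rose from 0.0562 ± 0.0211 to 4.39 ± 0.341 TPM, CADM3 from 0.0128 ± 0.0222 to 2.69 ± 0.106 TPM and PVRL3, a partner of PVRL2 in cell adhesion, from 5.38 ± 0.646 to 9.92 ± 1.44 TPM. The abundant CADM1 and CADM4 held most of the summed level of this list, which ran from 364 to 402 TPM in vehicle and from 468 to 566 TPM in TSA.

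Of 10 other ligands of lymphocyte receptors 4 were tested, with 3 higher and 1 lower. HLA-E and ICAM1 had means under 1 TPM in vehicle and entered the test through TSA, and of the other 2 HLA-G was higher and CD58 lower. The shares over all tested genes were 28.0% higher and 34.2% lower. They include genes under 1 TPM in vehicle and are not a like background for HLA-G and CD58 alone. HLA-E, the ligand of the NKG2A receptor of natural killer cells, rose from 0.709 ± 0.123 to 45.3 ± 7.38 TPM, the adhesion gene ICAM1 from 0.820 ± 0.332 to 3.42 ± 0.638 TPM and HLA-G from 4.04 ± 1.22 to 10.8 ± 1.75 TPM. HLA genes share sequence, so reads could be left out or given to another HLA gene, and the HLA values are uncertain. CD58, the ligand of CD2, had a log2 difference of −1.06. LGALS9 and TNFRSF14 stayed under 1 TPM in all libraries.

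The lymphocyte receptors of the ligands were low. Of 5 that were found, 4 stayed under 1 TPM in all libraries and TNFRSF9, the receptor of TNFSF9, was tested. It was at 0 in every vehicle library and at 1.37 ± 0.127 TPM in TSA, with a log2 difference of 1.24. It entered the test only through TSA and had to differ, and the size of its log2 difference is set by the added 1, being 3.87 with 0.1 added instead. CD226 was at 0.302 ± 0.199 and 0.0348 ± 0.000901 TPM.

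Of 6 partners and modifiers of CD47 that were found, 4 were tested. There were 2 higher and 1 lower, beside 28.0% and 34.2% of all tested genes. SIRPA, the receptor of CD47, fell from 38.8 ± 4.78 to 2.84 ± 0.216 TPM, a log2 difference of −3.37 beside −0.40 for CD47. CALR, which encodes calreticulin, a chaperone that marks cells for phagocytosis at the cell surface, rose from 1040.3 ± 164 to 2685 ± 479 TPM. QPCTL, which encodes the enzyme that modifies CD47 at its SIRPA-binding end, rose from 11.7 ± 1.96 to 21.3 ± 2.18 TPM. The thrombospondin genes THBS1 and THBS2 stayed under 1 TPM.

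Interferon gamma is the best known inducer of CD274. Of 12 genes of its pathway 11 were tested, with 5 higher and 3 lower, beside 28.0% and 34.2% of all tested genes. Their median log2 difference was 0.76, beside −0.10 for all tested genes. The lower call on JAK2 (limma, adjusted p = 0.041) ended in 9 of 19 alternatives. Among them were the fits without any 1 of the vehicle libraries or without TSA library 2 or 3. It also ended with no filter, without mitochondrial genes, with recovered reads and with length and GC trends removed. Each of these left 2 lower, and 5 to 7 genes were higher over the alternatives. IFNGR2, a chain of the interferon gamma receptor, fell from 75.9 ± 11.1 to 7.77 ± 0.911 TPM, while IFNGR1, the other chain, rose from 41.8 ± 5.21 to 100.2 ± 15.1 TPM and the kinase gene JAK1 from 47.3 ± 6.68 to 115 ± 22.6 TPM. IRF1, the factor known to act on the CD274 promoter, was at 4.36 ± 0.842 and 4.94 ± 0.533 TPM and did not pass the test (limma, adjusted p = 0.47).

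Of 12 genes whose products handle the PD-L1 protein all were tested. There were 3 higher and 3 lower, beside 28.0% and 34.2% of all tested genes. With length and GC trends removed 6 of the 12 were higher and 3 lower. The median log2 difference of the 12 was −0.09, and 0.03 with median ratios or 0.06 with quantiles as the scaling. STUB1, a ubiquitin ligase gene, rose from 82.1 ± 11.5 to 364 ± 50.7 TPM and the palmitoyltransferase gene ZDHHC9 from 29.4 ± 2.0 to 53.6 ± 4.48 TPM. CMTM4 fell from 47.9 ± 7.01 to 16.2 ± 3.16 TPM, while its relative CMTM6, a stabiliser of PD-L1, was at 52.9 ± 6.03 and 51.1 ± 9.36 TPM.

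**Figure D5:**
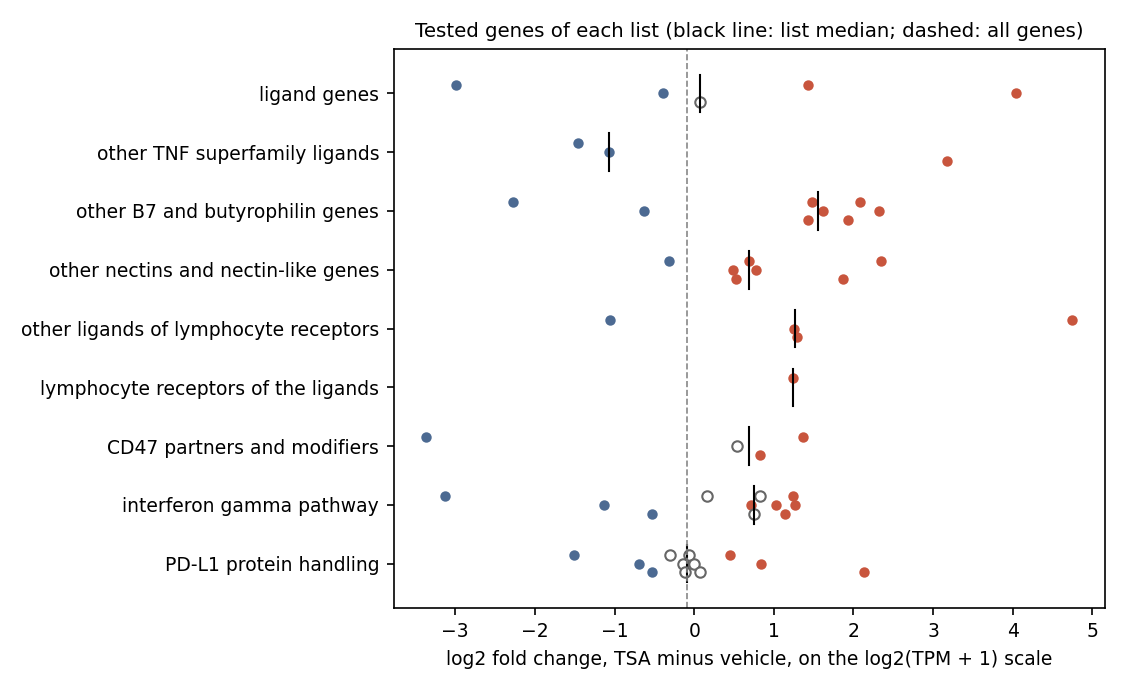
The log2 fold change of each tested gene of the ligand list and of 8 lists of related genes, in red where higher, blue where lower and open where the test was not passed, with the median of each list as a black line and the median of all tested genes, −0.10, as a dashed line. The greatest rise is HLA-E at 4.75 and the greatest fall SIRPA at −3.37.

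The tested genes most like TNFSF9 over the 6 libraries, by the root mean square difference in log2(TPM + 1), were OLFM2 (0.224), GM2A (0.227) and C12orf68 (0.262). Each of them was under 1 TPM on average in vehicle and between 14.6 and 17.7 TPM in TSA. The genes most like CD276 were CABP7 (0.120), LRFN4 (0.187) and DIS3L (0.211), with means from 28.5 to 31.0 TPM in vehicle and from 2.29 to 2.75 TPM in TSA.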

How the data were processed

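RNA of 6 libraries was sequenced after selection of polyadenylated RNA with a stranded kit on an Illumina instrument, per the labels. Per the submitters' processing notes, which give no roles, the tools were STAR 2.5.3a, featureCounts, edgeR, Picard 1.127 and FastQC 0.11.2, with hg19 as the build. Whether the authors counted by strand is not stated in the labels or headers. The authors deposited TPM for GENCODE 19 genes. Their table of the comparison holds log2 fold changes and mean log2 levels, a likelihood ratio score, and a p-value and FDR per gene, per the file headers. Positive fold changes mean higher in TSA, as settled against the TPM values.

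The 17596 genes that reached 1 TPM in 3 or more of the 6 libraries were tested with limma 3.58.1 in R 4.3.3 (lmFit, eBayes with trend) on log2(TPM + 1), 2-sided, at a threshold of 0.05 on p-values adjusted by Benjamini-Hochberg across those genes. That scale understates the change of low genes. The 12 related lists held 115 genes, 106 of them in the table. Whole reads were recovered from ratios of TPM values for 100% of 27644 genes (relative tolerance 1e-09). They are lower bounds, and intervals and floors made from them cover counting error only. The fit was tested on simulated data. Gene order, and the longest transcript's length and GC content, came from GENCODE 29. Sequences came from RefSeq windows.

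The ligand genes and lists were chosen with earlier results of these data known. Named by rule were all ligand genes, up to 3 genes of each list with the greatest change past the test (or the 2 highest where fewer than 2 passed), neighbours past the test with a log2 difference of at least 1, and the 3 genes nearest in pattern to TNFSF9 and CD276. Others were named after their values were seen, and a few marker genes fitting the rule are not reported here. Alternatives were pseudocounts of 0.1 and 0.5, no filter, a filter at 5 TPM, scaling by median ratios or quantiles, no trend, robust variance, the replicate block, leaving out libraries, no mitochondrial genes, recovered reads with voom, and length and GC trends removed.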

Additional observations from a re-analysis of the deposited data

How the results depend on the processing

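Over 19 alternatives PVRL2 stayed higher and CD276 lower past the threshold in each. TNFSF9 was called higher in each too. In every fit with the filter it entered only through TSA and had to differ, so those calls add no support. The log2 difference of PVRL2 ran from 1.20 to 1.60 and that of CD276 from −3.34 to −2.89. That of TNFSF9 ran from 3.84 to 8.55, the highest with recovered reads and voom, where the value of a gene at 0 in vehicle depends on the prior count. The number of ligand genes called lower went from 2 to 1, through CD47, under a quantile scaling, without mitochondrial genes, with recovered reads and with length and GC trends removed, and was 1 to 2 with each library left out in turn. The cause was not tested. With length and GC trends removed the log2 difference of CD47 was 0.0704 and that of PVR was −0.0575. Without both libraries numbered 1 the counts were 2 higher and 2 lower, as in the main test. Over all genes, 3788 to 5826 were called higher and 4956 to 6848 lower. With the replicate block 5637 genes were higher and 6848 lower, and 2 ligand genes were called in each direction. Deviations from the group means correlated by 0.63, 0.59 and −0.07 over genes for libraries numbered 1, 2 and 3. Vehicle library 3 correlated best with TSA library 1, at 0.11. Deviations within a group cancel out, so those of library 3 follow from libraries 1 and 2 and cannot settle whether the numbers pair. The mitochondrial share was largest for number 1 (12.3% with vehicle, 16.9% with TSA) and smallest for number 2 (4.97% and 7.65%). Whether libraries of the same number shared a batch was not tested. Depth limits TNFSF4, CD70 and CD274, which rested on at most 77 recovered reads each.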
